A study of Homo sapiens with 12 samples.

Results

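The genes of the cytosolic ribosomal proteins were followed through PRIMA-1Met treatment of 3 cell lines labelled as myeloma. Members were all probes whose symbol is RPL or RPS plus a number, with the endings of the functional genes, while pseudogenes, S6 kinases and mitochondrial ribosomal proteins were left out. This rule gave 128 of the 47321 probes analysed, from 78 genes, of which 28 encode small subunit and 50 large subunit proteins. Of these, 121 probes and 75 genes (28 small, 47 large subunit) passed the detection filter and were tested among 11305 genes. RPL10 with its 2 probes, RPL22L1 and RPL3L were detected on 0 of the 12 arrays. RPLP0 and RPSA had no probe with a symbol here and were not analysed here. The Y-linked members are counted among the 75 genes and not shown singly.

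Each line was grown in duplicate wells and given PRIMA-1Met or its solvent DMSO for 8 h, and the RNA of each well was measured on an Illumina HumanHT-12 array, with 2 arrays for each of 6 groups. PRIMA-1Met is a small molecule studied for its action on mutant p53. MM.1S, labelled p53 wild type, received 20 µM, U266, labelled p53 mutant, received 40 µM, and 8226R5, labelled p53 null and spelled 8266R5 in another label, received 40 µM. The p53 label and the line cannot be told apart in any comparison between lines, nor can the dose in comparisons of the response of MM.1S with that of U266 or 8226R5, which received the same dose. Because the wells of a group were duplicates, p-values measure the spread between such wells.

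A cytosolic ribosome has a small subunit that reads the messenger RNA and a large subunit that joins the amino acids, and each carries many proteins on a core of ribosomal RNA. The messenger RNAs of these proteins are among the most abundant in a cell, and most begin with a run of pyrimidines, the terminal oligopyrimidine (TOP) motif, through which mTOR signalling controls their translation. Myeloma cells descend from plasma cells, which make antibody and so depend on high protein synthesis.

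The start of the transcript shows this motif in most members. Of the 66 members with a start in the RefSeq table (GRCh38.p14), 45 (68.2%) had at the annotated start itself a C followed by at least 4 further C or T, against 5.14% of the 27305 genes in the table. Allowing the run to begin up to 5 bases to either side, 80.3% of members and 25.2% of all genes had one. Among the mitochondrial ribosomal protein genes 8.82% had the run at the start. Among translation factors and other TOP mRNAs 69.6% did, a share that follows in part from the choice of known TOP mRNAs for that list. The letters CTTTC lay in the 40 bases around the start in 51.5% of members and its reverse complement GAAAG in 1.52%, against 6.96% and 5.39% of all genes, a motif that can overlap the run. These are matches of letters and were not tested as sites. The windows below, each 20 bases before and 20 after the start, are written 5′ to 3′ on the strand of the gene. They belong to some of the members named for their change in MM.1S and to the paralog RPS27L. Capitals mark the run in those that carry it. RPL28, RPS7 and RPL13, also named for their change, are not shown. RPL28 has the run at the start, and in RPS7 a run begins at -3 bases from it.
RPL22 (chr1:6199576-6199615, minus strand): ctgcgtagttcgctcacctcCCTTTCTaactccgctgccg
RPS23 (chr5:82278335-82278374, minus strand): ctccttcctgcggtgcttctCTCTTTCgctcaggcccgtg
RPL4 (chr15:66504836-66504875, minus strand): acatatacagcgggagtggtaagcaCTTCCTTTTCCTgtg
RPS4X (chrX:72277229-72277268, minus strand): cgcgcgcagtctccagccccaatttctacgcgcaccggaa
RPL14 (chr3:40457319-40457358, plus strand): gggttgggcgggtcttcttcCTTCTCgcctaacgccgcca
RPL35 (chr9:124861938-124861977, minus strand): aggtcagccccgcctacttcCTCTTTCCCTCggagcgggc
RPL36 (chr19:5690275-5690314, plus strand): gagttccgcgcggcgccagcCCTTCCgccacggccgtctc
RPL7L1 (chr6:42879596-42879635, plus strand): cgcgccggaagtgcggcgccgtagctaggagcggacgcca
RPL10L (chr14:46651762-46651801, minus strand): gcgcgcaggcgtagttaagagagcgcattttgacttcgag
RPS27L (chr15:63157458-63157497, minus strand): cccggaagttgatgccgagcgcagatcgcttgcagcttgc
RPL22 and RPS23, which fell most in MM.1S among members detected in both groups, and RPL14, RPL35 and RPL36, which were called higher there, all have the run at the start. In RPL4 a run of 12 bases begins 5 bases inside the transcript. RPS4X and the paralogs RPL7L1, RPL10L and RPS27L have no such run within 5 bases of the start. The run was at the start itself in 5 of 8 members called higher in MM.1S, 20 of 32 called lower and 17 of 22 not called.

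The arrays differed in brightness before normalization. On the deposited scale the median signal of the tested genes was 299 and 282 intensity units on the MM.1S control arrays and 73.5 and 73.4 on the treated ones, while it lay between 187 and 339 on the other arrays. Replicate arrays differed with an SD of 0.43 log2 in treated MM.1S and 0.176 to 0.246 in the other groups. On the arrays labelled 8226R5, 5 of 12 plasma cell markers were detected, and their summed signal was 3048 to 3438 intensity units, against 103560 to 107776 in MM.1S controls and 53525 to 54912 in U266 controls. TNFRSF17, JCHAIN, CD38, SLAMF7, IRF4, POU2AF1 and CD27 were not detected there. CD3D, a T cell receptor subunit, had signals of 5023 and 4841 and EPCAM, an epithelial adhesion protein, 12133 and 11162 on the 8226R5 control arrays, and neither was detected on the other lines' arrays. Of 7 T and NK cell markers 5 were detected on the 8226R5 arrays, with a summed signal of 5377 to 6463 against 142 to 331 in the other lines, and of 5 liver, epithelial and stromal markers 4 were detected, with 11652 to 15256 against 297 to 1249. Most defining plasma cell markers are thus absent from the arrays labelled 8226R5, and results for 8226R5 below refer to that label. In treated MM.1S the summed plasma cell marker signal was 24249 to 24888 and in treated U266 20165 to 22080, and the part of these shifts in the results was not tested.

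In MM.1S the members kept more of their deposited signal than the typical gene. Across 71 members detected on all 4 arrays, the treated signal was a median 53.7% of the control signal, against 24.0% for 6626 tested genes. It was 24.1% for 75 mitochondrial ribosomal protein genes and 27.7% for 28 translation factors and other TOP mRNAs. In U266 the same median was 83.3% for 74 members and 61.2% for 8465 genes. On the arrays labelled 8226R5 it was 117% for members and 120% for all genes. The members made up 11.4% and 11.6% of the summed signal of tested genes on the MM.1S control arrays and 14.8% on both treated arrays. RNA was amplified from the same input for every array, so these signals do not measure RNA per cell. The cause of the dimmer treated MM.1S arrays was not tested.

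In MM.1S the share of signal kept differed between bands of probe brightness. The 23 members with a control signal of 40000 or more kept a median 74.2% and the 33 other genes in that band 91.9%. The highest signal of an array was 54584 to 63221 intensity units. Between 20000 and 40000 the 20 members kept 54.7% and the 58 other genes 38.8%. Between 8000 and 20000 the 12 members kept 38.0% and the 273 other genes 26.2%. From 500 to 2000 and from 2000 to 8000 the members kept 27.5% and 25.9% and the other genes 18.4% and 20.2%. Below 500, with 1 member at 26.5%, the 2199 other genes kept 36.9%, so brightness and signal kept did not run together over the whole range. In U266 the 6 bands of members, from dim to bright, kept 90.3%, 96.9%, 73.4%, 78.5%, 83.3% and 90.8%. The other genes kept 59.6%, 59.7%, 64.3%, 72.7%, 85.3% and 89.7%, rising with brightness. Members thus kept more than other genes in each band below 20000. In the bands above, with 26 and 13 members, they were slightly below and slightly above the other genes. On the 8226R5 arrays the members kept 186%, 112%, 121%, 117%, 121% and 104%, with no steady rise from dim to bright. Of the 71 members 43 had a control signal of at least 20000, against 134 of the 6626 genes. The part of probe brightness in the members' median was not tested beyond these bands.

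**Figure D1:**
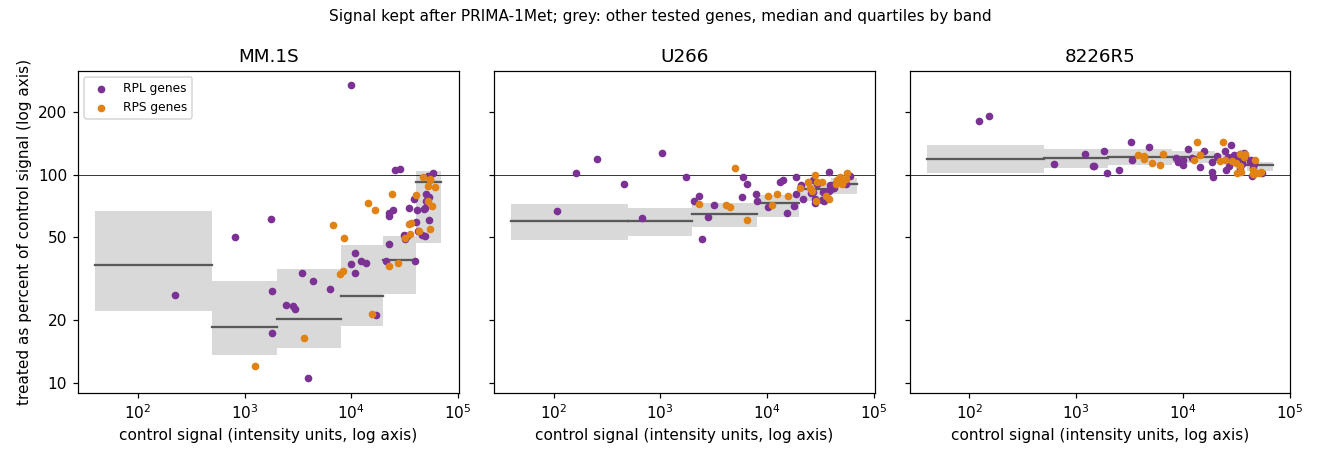
Treated signal as a percentage of control signal (log axis) against the mean control signal in intensity units (log axis) for each member, with RPL genes in purple and RPS genes in orange. Grey bars span the quartiles of the other tested genes in each signal band with their median as a line, and in MM.1S the brightest band kept medians of 74.2% for members and 91.9% for other genes, while other genes kept 36.9% in the dimmest band and 18.4% in the next.

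After quantile normalization, which sets the arrays to 1 common distribution, values are differences on the log2 scale between treated and control means, with a standard error (SE) and a p adjusted over all 11305 genes by limma. In MM.1S 39 members were lower and 8 higher at an adjusted p under 0.05. Of all tested genes 50.1% were lower and 24.0% higher, while the members' shares were 52.0% and 10.7%. The median member changed by -0.23 and the median gene by -0.35. Of the small subunit genes 14 were lower and 2 higher, and of the large subunit genes 25 were lower and 6 higher. At the 2-fold size that the study used, 5 of the 75 members were lower and 2 higher, against 23.7% and 12.8% of all genes. The share lower is near the background of this comparison, so the count of falls says little that is particular to these genes. The split turned with the scaling of the arrays. It was 59 lower and 4 higher with median scaling over all probes, 63 and 2 with no scaling, and 6 and 62 when the arrays were scaled on the median of commonly detected probes (those above background on all 12), where the median of all genes was 0.36. The members' shares were 78.7%, 84.0% and 8.0% lower and 5.33%, 2.67% and 82.7% higher. Of all genes 74.9%, 78.3% and 31.1% were lower and 7.87%, 6.32% and 52.0% higher under these scalings, in the same order. Leaving all arrays labelled 8226R5 out of the fit gave 39 (52.0%) lower and 7 (9.33%) higher, against 48.4% and 23.1% of all genes.

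**Figure D2:**
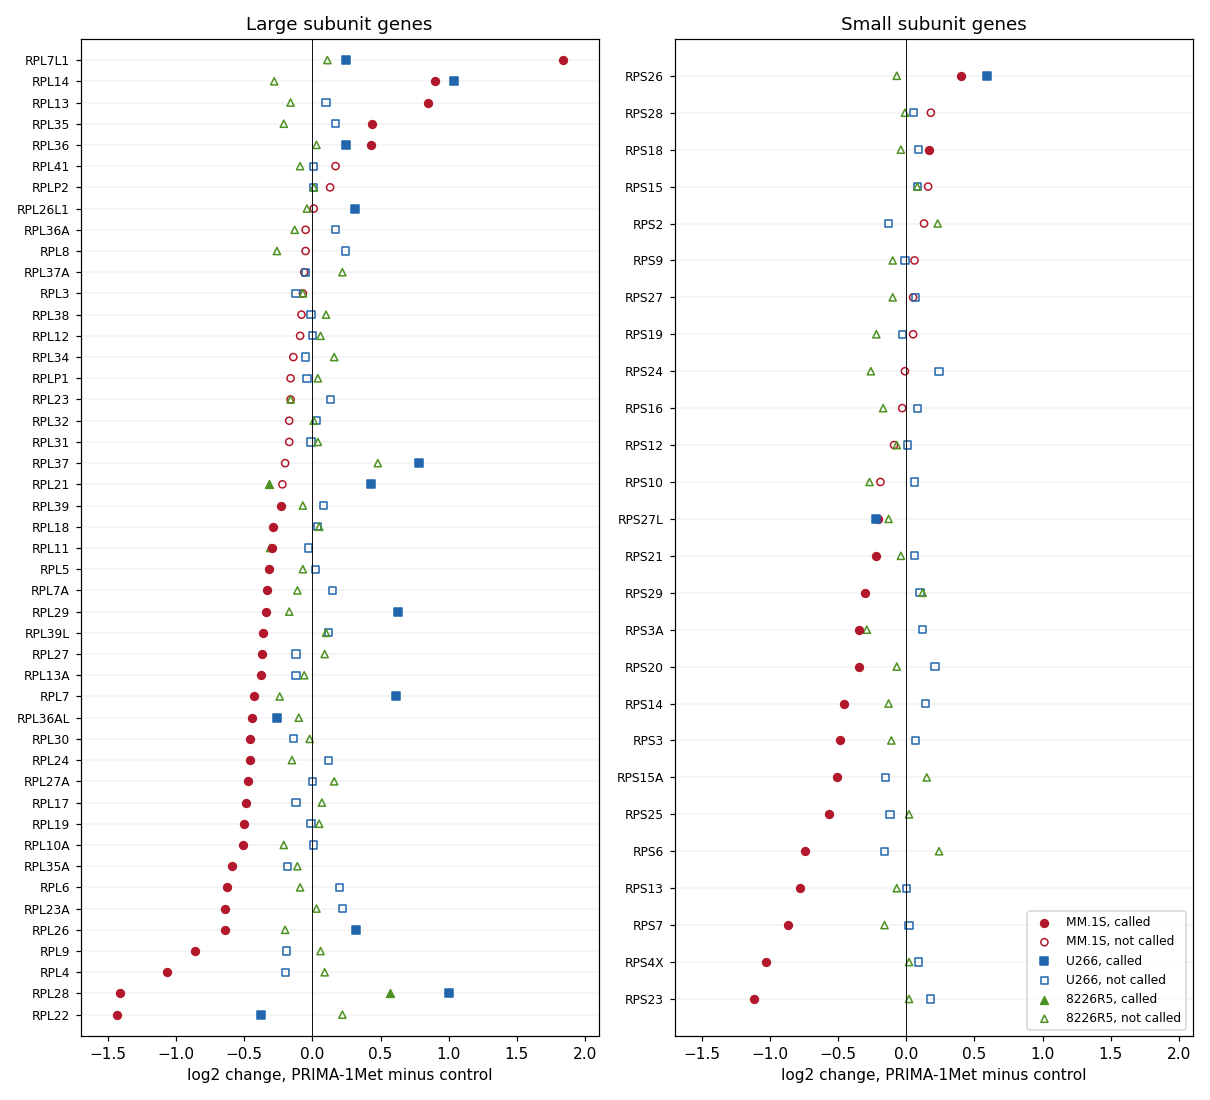
Change in normalized log2 signal, PRIMA-1Met minus control, for large subunit genes (left) and small subunit genes (right), sorted by the change in MM.1S. Red circles are MM.1S, blue squares U266 and green triangles 8226R5, and filled symbols passed an adjusted p under 0.05. RPL10L lies beyond the axis at 5.37 in MM.1S and is left out, and most MM.1S points sit left of 0 while U266 and 8226R5 points cluster around it.

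Among large subunit genes RPL22 fell most in MM.1S. RPL22 is an RNA-binding protein that mice can live without and that their T cell development needs. Its signals were 3853 and 4043 intensity units in MM.1S control and 393 and 433 in treated cells, 2471 and 2446 against 1271 and 1133 in U266, and 3228 and 3283 against 4958 and 4395 on the 8226R5 arrays. Both treated arrays lay below both controls in MM.1S and U266 and above them in 8226R5. The normalized change was -1.43 (SE 0.09, limma adjusted p = 9.09e-07) in MM.1S, -0.38 (SE 0.09, adjusted p = 0.0125) in U266 and 0.22 (SE 0.09, adjusted p = 0.145) in 8226R5. By the probe that stands for each gene, RPL22, RPL36AL and RPS27L are the 3 members lower in both MM.1S and U266. They are all 3 of those lower in U266 and 7.69% of those lower in MM.1S. The second probe of RPL36AL did not pass in either line.

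RPL4, whose extension lines the tunnel through which the new protein leaves, gave 17717 and 16545 in MM.1S control and 3553 and 3675 in treated cells. In U266 it gave 17887 and 17635 against 13446 and 11586, and in 8226R5 16197 and 15120 against 20534 and 20059. The groups did not overlap in any line, and the signal was lower with the drug in MM.1S and U266 only. After normalization RPL4 changed by -1.07 (SE 0.08, adjusted p = 2.86e-06 by limma) in MM.1S, -0.20 (adjusted p = 0.0899) in U266 and 0.09 (adjusted p = 0.53) in 8226R5.

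RPL28 was dim. It was detected in MM.1S control cells at 105 and 102 and on neither treated array, at 15 and 16. In U266 its signal was 271 and 235 against 314 and 287 with the drug, and on the 8226R5 arrays 152 and 156 against 300 and 289. It is the member called in all 3 lines, and the groups did not overlap in any of them. In the quantile normalized values the MM.1S difference was bounded at at least 1.02-fold lower, with a fitted change of -1.41 (SE 0.08, adjusted p = 5.73e-07 by limma). In U266 it rose by 1.00 (SE 0.08, adjusted p = 5.89e-05) and in 8226R5 by 0.57 (SE 0.08, adjusted p = 0.00319).

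RPL23A, which lies at the tunnel exit where the signal recognition particle binds, had signals of 1946 and 1666 in MM.1S control and 319 and 310 after treatment. It changed by -0.64 (SE 0.08, adjusted p = 7.23e-05 by limma). The other members of the large subunit that fell in MM.1S changed by between -0.23, for RPL39, and -0.86, for RPL9.

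In the small subunit RPS23 fell most. RPS23 lies in the decoding centre, where codon and anticodon pair. It gave 1239 and 1264 in MM.1S control and 169 and 132 after treatment, 2347 and 2219 against 1687 and 1599 in U266, and 3573 and 4006 against 4843 and 4562 in 8226R5. All treated arrays were lower in MM.1S and U266 and higher in 8226R5. The normalized change was -1.12 (SE 0.12, adjusted p = 2.98e-05 by limma) in MM.1S and 0.18 (adjusted p = 0.318) in U266.

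RPS4X, the X-linked small subunit protein, gave 16153 and 15031 in MM.1S control against 3344 and 3289 after treatment. In U266 it gave 13630 and 11083 against 9950 and 9873, and in 8226R5 14147 and 14913 against 18298 and 17837. The MM.1S change was -1.03 (SE 0.10, adjusted p = 1.17e-05 by limma), while in U266 and 8226R5 it was 0.09 and 0.02, neither past the threshold. RPS7, one of the proteins that bind MDM2, the ligase of p53, went from 3727 and 3502 to 594 and 593 in MM.1S, a change of -0.87 (SE 0.09, adjusted p = 2.18e-05). RPS6, the substrate of the S6 kinases, went from 23347 and 22101 to 8462 and 8105, a change of -0.74 (SE 0.07, adjusted p = 1.51e-05). On the 8226R5 arrays RPS6 had 24082 and 23917 in control and 34225 and 34889 in treated cells, and its normalized change of 0.24 (adjusted p = 0.0669) did not pass.

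Scaling decides how many of these falls count as falls against the typical gene. Under 7 ways of correcting and scaling the arrays, 7 of the 39 members lower in MM.1S stayed below the median of all genes every time, namely RPL22, RPL23A, RPL28, RPL4, RPS23, RPS4X and RPS7. RPS6, RPL5, RPL11, RPL36AL and RPS27L, described here as lower in MM.1S, had changes of 0.46, 0.11, 1.38, 0.50 and 0.39 when scaled on the commonly detected probes, and RPL28 had 0.15. For RPL22 the difference from the median gene ranged from -1.66 to -0.99, and for RPL4 from -0.79 to -0.63.

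The 8 members called higher in MM.1S were RPL10L, RPL7L1, RPL14, RPL13, RPL35, RPL36, RPS26 and RPS18, and each stayed above the median gene under all 7 scalings. RPL7L1, a paralog of RPL7 found in the nucleolus, gave 10501 and 9464 in MM.1S control and 26887 and 26628 after treatment. In U266 it gave 13271 and 12956 against 12209 and 11947, and on the 8226R5 arrays 10835 and 11493 against 14787 and 14971. Its treated arrays were far above the controls in MM.1S, slightly below them in U266 and above them in 8226R5. The normalized change was 1.84 (SE 0.07, adjusted p = 5.43e-08 by limma) in MM.1S and 0.25 (SE 0.07, adjusted p = 0.0304) in U266. Its second probe, however, gave 1683 and 1375 against 291 and 291 in MM.1S and a change of -0.49 (SE 0.12, adjusted p = 0.004), so the direction depends on the probe.

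RPL10L, an intronless copy of RPL10 known from testis, was below detection in MM.1S and U266 controls. Its signals were -16 and 8 in MM.1S control and 398 and 353 after treatment, 6 and 16 against 97 and 80 in U266, and 55 and 26 against 91 and 67 in 8226R5. The treated arrays were above the controls in all 3 lines. It was at least 19.4-fold higher in treated MM.1S (adjusted p = 9.97e-08 by limma) and at least 2.33-fold higher in treated U266 (adjusted p = 0.000384), while the change in 8226R5, where 1 of 2 control arrays detected it, did not pass (adjusted p = 0.159). Probe sequences were not used here, so hybridisation of this or any member's probe to a copy or pseudogene was not tested.

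RPL35, a protein of the tunnel exit, and RPL36 were bright in all lines. In MM.1S RPL35 gave 26389 and 25371 in control and 27304 and 26947 after treatment, and RPL36 gave 28507 and 28750 against 30139 and 30411. They were 2 of the 4 among 71 members detected on all 4 MM.1S arrays whose treated signal exceeded the control, at 105% and 106% of it. Their normalized changes were 0.44 (SE 0.07, adjusted p = 0.000281 by limma) and 0.43 (SE 0.07, adjusted p = 0.000484). In U266 RPL36 gave 18637 and 19067 against 18262 and 18305, slightly lower as a signal, and was called higher after normalization by 0.25 (adjusted p = 0.0311).

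RPL14 differs in its deposited signal from its normalized call. It gave 1760 and 1793 in MM.1S control and 1101 and 1057 after treatment, 60.8% of control, where the median gene kept 24.0%. After normalization its change was 0.90 (SE 0.09, adjusted p = 1.83e-05 by limma). In U266 it gave 1053 and 1031 against 1270 and 1367, higher on both treated arrays, and a change of 1.04 (SE 0.09, adjusted p = 8.68e-05). On the 8226R5 arrays it gave 1998 and 1876 against 1893 and 2049, which overlap. The second RPL14 probe gave 1488 and 1652 against 1191 and 1176 in U266, lower on both treated arrays. Its change there of 0.26 did not pass (adjusted p = 0.0689 by limma over probes), so the U266 call rests on 1 probe. In MM.1S the second probe gave 372 and 347 against 151 and 170 and changed by 0.72 (adjusted p = 8.7e-05). RPL13 likewise went from 852 and 772 to 388 and 428 in MM.1S with a normalized change of 0.85 (SE 0.13, adjusted p = 0.000252). With median scaling the changes of RPL14 and RPL13 were -0.55 and -0.81.

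**Figure D3:**
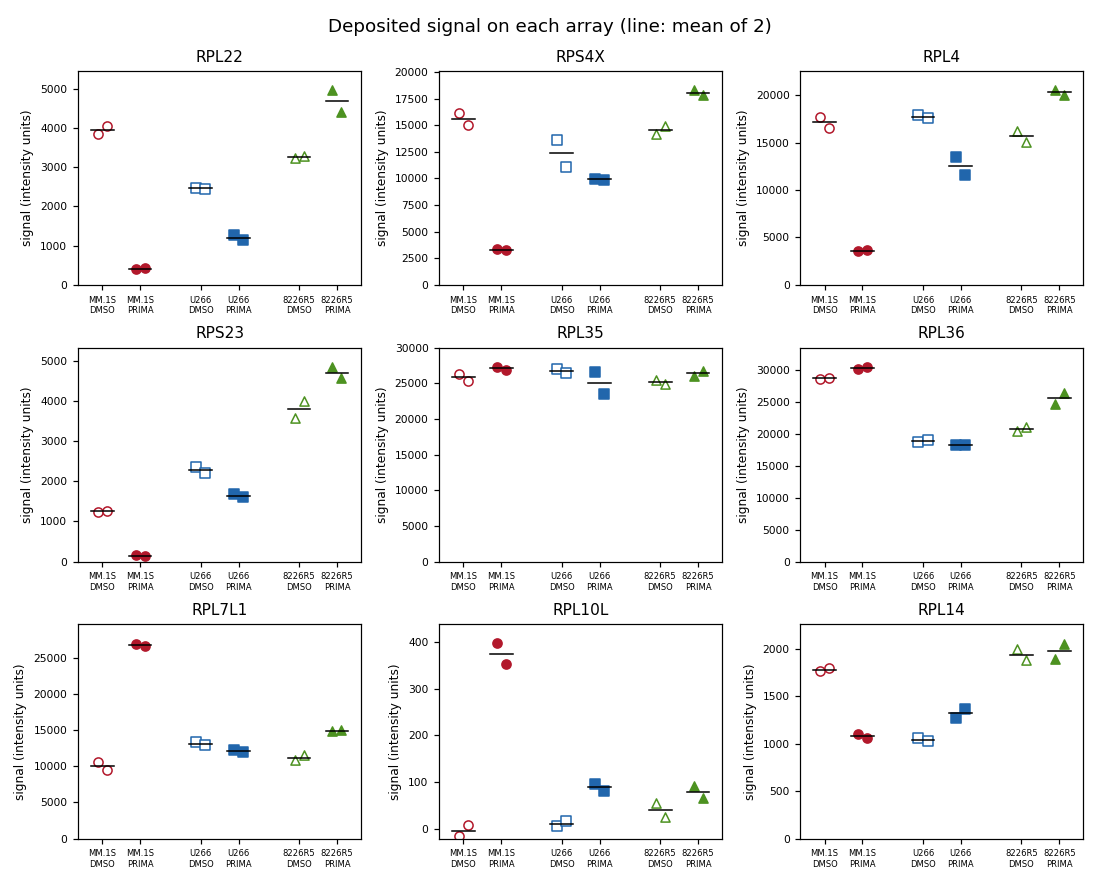
Deposited signal in intensity units on a linear axis for 9 members, with open symbols for DMSO and filled for PRIMA-1Met arrays, 2 arrays a group, and the line at their mean. Each gene is shown by the probe that stands for it. RPL22, RPS4X, RPL4 and RPS23 fall with the drug in MM.1S, RPL7L1 and RPL10L rise there, RPL35 and RPL36 stay near their control, and RPL14 is lower in MM.1S and higher in U266.

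In U266 12 of 75 members were higher and 3 lower, against 13.3% and 16.4% of all tested genes. The median member changed by 0.05 and the median gene by -0.01. Of the 12, 11 belong to the large subunit and 1, RPS26, to the small. Those with the largest rises were RPL10L, RPL14, RPL28, RPL37, RPL29 and RPL7. RPL37 was dim, with 162 and 161 in control and 172 and 157 after treatment, which overlap on the deposited scale, and its normalized change was 0.78 (SE 0.19, adjusted p = 0.0154 by limma). RPL29, a heparin-binding protein of the large subunit, gave 457 and 465 against 445 and 388, lower as a signal, and a normalized change of 0.63 (SE 0.08, adjusted p = 0.000731). RPL7 gave 1679 and 1782 against 1704 and 1649, also overlapping, and a change of 0.61 (SE 0.10, adjusted p = 0.00264). In MM.1S RPL29 and RPL7 changed by -0.34 and -0.43, and 4 members (RPL26, RPL28, RPL29 and RPL7) were lower in MM.1S and higher in U266. Of the members higher by the probe that stands for each gene, 5 were shared, 62.5% of those in MM.1S and 41.7% of those in U266. The split was 4 higher and 24 lower with median scaling, 3 and 41 with no scaling, and 64 and 1 when scaled on the commonly detected probes, where 3.64%, 2.01% and 29.5% of all genes were higher. Of the 11305 genes 65.3% were lower with median scaling, 8476 genes with no scaling and 15.6% on the commonly detected probes. Fewer members were called higher or lower with 1 U266 array left out, which leaves 1 array in a group. The shares of all genes in those fits were not counted. The fit without 8226R5 arrays gave 9 higher and 1 lower, against 10.8% and 13.3% of all genes. That without MM.1S arrays gave 12 and 2, against 16.2% and 19.2%.

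Among the 3 lower in U266, RPS27L, a paralog of RPS27 induced by p53, gave 6555 and 6486 in control and 4125 and 3769 after treatment and changed by -0.22 (SE 0.07, adjusted p = 0.0449 by limma). In MM.1S it went from 8774 and 7979 to 2915 and 2861 and changed by -0.21 (adjusted p = 0.0244). RPL36AL, a paralog of RPL36A, gave 14849 and 15839 against 10559 and 9565 in U266 and changed by -0.26 (adjusted p = 0.0274). Its second probe changed by -0.05 in U266 (adjusted p = 0.702 by limma over probes) and -0.17 in MM.1S (adjusted p = 0.116), so the fall rests on 1 probe. Both treated arrays were below both control arrays for each of these genes in both lines.

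On the arrays labelled 8226R5 2 of 75 members were called, RPL28 higher and RPL21 lower, each 1.33% in its direction, against 5.33% of all genes higher and 7.19% lower. RPL21 gave 18169 and 20189 in control and 19037 and 18322 after treatment, which overlap, and a normalized change of -0.32 (SE 0.09, adjusted p = 0.0493 by limma). At an unadjusted p under 0.05, 6 members were higher and 11 lower, 8.0% and 14.7%, against 11.8% and 15.6% of all genes. Leaving out the MM.1S arrays gave 2 (2.67%) higher and 1 (1.33%) lower, against 7.03% and 9.62% of all genes. The call of RPL21 did not hold when any 1 of the 4 arrays of the line was left out. The split was 23 higher and 0 lower with median scaling, 30 and 0 with no scaling, and 2 and 7 when scaled on the commonly detected probes. The members' shares were 30.7%, 40.0% and 2.67% higher and 0.0%, 0.0% and 9.33% lower. Of all genes 27.6%, 33.9% and 6.39% were higher and 4.46%, 3.62% and 14.4% lower. The count higher also changed with control array 1 left out.

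Some members drew attention for their known roles. RPL5 and RPL11, which join with ribosomal RNA to hold MDM2, fell in MM.1S by 0.32 (adjusted p = 0.0109 by limma) and 0.30 (adjusted p = 0.0156) and did not pass in the other lines. RPL5 gave 6895 and 5793 in MM.1S control and 1717 and 1873 after treatment. RPL11 gave 52505 and 46034 against 32454 and 35295, where both treated arrays were lower. Its second probe gave 41996 and 39062 against 29138 and 31328 and changed by -0.08, which did not pass (adjusted p = 0.584 by limma over probes). The stalk proteins RPLP1 and RPLP2, which bring in elongation factors, changed by -0.16 (adjusted p = 0.0854) and 0.13 (adjusted p = 0.349) in MM.1S. By the probe that stands for each gene, they did not pass in any line. A dimmer RPLP1 probe gave 1788 and 1560 against 1150 and 1172 in MM.1S. It changed by 1.08 there and 0.84 in U266 (adjusted p = 1.14e-05 and 0.0005 by limma over probes). The third RPLP1 probe changed by -0.27 in MM.1S (adjusted p = 0.063) and 0.14 in U266 (adjusted p = 0.399). RPL39L, a testis-enriched paralog of RPL39, fell by 0.36 in MM.1S (adjusted p = 0.00388), from 2871 and 2762 to 652 and 663. RPL26L1, a paralog of RPL26, gave 3295 and 3591 against 1229 and 1083 in MM.1S and changed by 0.01 (adjusted p = 0.948). In U266 RPL26L1 gave 2273 and 2298 against 1783 and 1804 and a normalized change of 0.31 (adjusted p = 0.0411). Its second probe changed by -0.49 in MM.1S (adjusted p = 0.00644 by limma over probes) and 0.26 in U266 (adjusted p = 0.156).

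Probes of 1 gene did not always move together. Of 34 genes with several kept probes, 4 had probes called in opposite directions in MM.1S, namely RPL32, RPL7L1, RPS26 and RPS29. For RPS26, linked to Diamond-Blackfan anaemia, the brighter probe gave 6793 and 6843 against 3987 and 3825 and a change of 0.40, while the dim one gave 164 and 161 against 15 and 2 and a change of -2.16. RPL32 had a dim probe at 130 and 135 against 208 and 218 that changed by 2.41 (adjusted p = 5.14e-08 by limma over probes), while the bright probe that stands for the gene changed by -0.17. Taken probe by probe over 14828 probes, 17 of 121 member probes were higher and 60 lower in MM.1S, against 22.5% and 50.3% of all probes. In U266 20 were higher and 3 lower, against 11.9% and 16.9%.

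**Figure D4:**
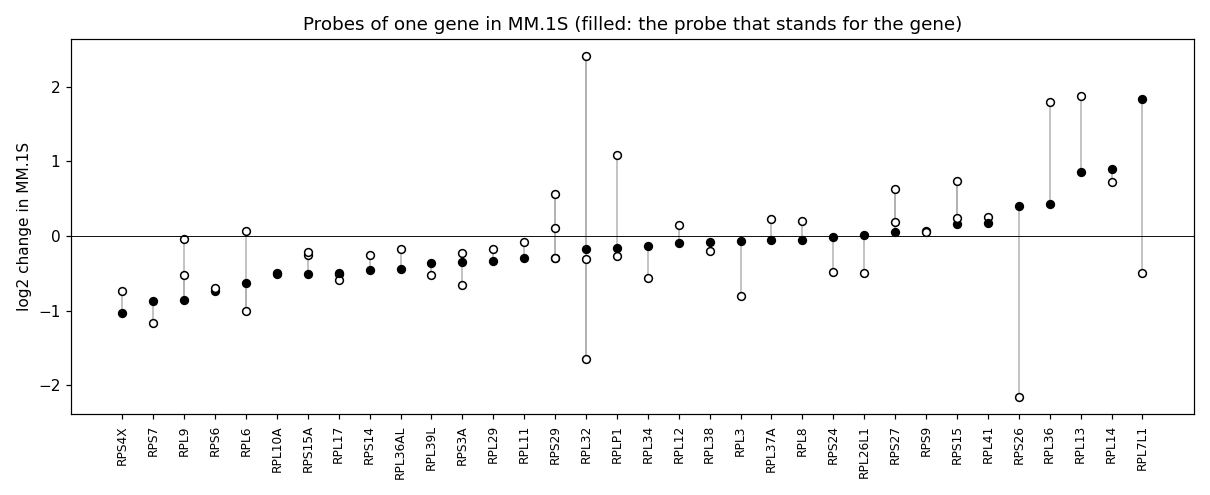
Normalized log2 change in MM.1S for every probe of the genes with several kept probes, sorted by the change of the probe that stands for the gene (filled), with a grey line joining the probes of a gene. RPL32, RPS26 and RPL7L1 have probes on both sides of 0, with RPL32 ranging from -1.65 to 2.41.

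The response was compared between lines in the same fit. Of the 75 members, 40 differed between MM.1S and U266, 4 (5.33%) higher and 36 (48.0%) lower in MM.1S, against 22.6% and 42.1% of all genes. Among members detected in all 4 groups, RPL7L1 differed by 1.60 (SE 0.10, adjusted p = 3.06e-06 by limma) and RPS23 by -1.30 (SE 0.17, adjusted p = 0.000189). The second RPL7L1 probe changed by -0.49 in MM.1S and -0.25 in U266, so the sign of its difference depends on the probe. RPL10L and RPL28 were also called, but each was undetected in a MM.1S group, so the size of their difference is not given here. Between MM.1S and 8226R5 36 differed, 7 (9.33%) higher and 29 (38.7%) lower, against 23.4% and 43.4% of all genes. Between U266 and 8226R5 13 differed, 11 (14.7%) higher and 2 (2.67%) lower, against 11.1% and 11.4% of all genes. The count was smaller without 8226R5 control array 1 or treated array 1, and the share of all genes in those fits was not counted. RPL14 differed by 1.32 (SE 0.13, adjusted p = 0.000332) and RPL22 by -0.60 (SE 0.12, adjusted p = 0.0104). The second RPL14 probe changed by 0.26 in U266 and -0.09 in 8226R5, neither past the threshold. Comparisons between lines share the control and treated arrays of a line.

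Without the drug, the lines also differed in their members. Between MM.1S and U266 controls 32 members (42.7%) were higher and 13 (17.3%) lower in MM.1S, against 31.9% and 31.7% of all genes. Between U266 and 8226R5 controls 34 (45.3%) were lower and 10 (13.3%) higher in U266, against 35.4% and 34.6%. Between MM.1S and 8226R5 controls 18 (24.0%) were higher and 20 (26.7%) lower, against 33.3% and 34.0% of all genes. RPL36A had normalized log2 levels of 10.73 and 10.42 in MM.1S, 6.59 and 6.48 in U266 and 9.31 and 9.19 in 8226R5, and RPL29 had 10.99 and 11.07, 8.43 and 8.46, and 10.46 and 10.43. The lines did not overlap for either gene. The MM.1S minus U266 differences were 4.03 (SE 0.17, adjusted p = 6.19e-08 by limma) and 2.59 (SE 0.08, adjusted p = 1.12e-08). RPL26, which binds p53 mRNA, was 1.70 higher in MM.1S than in U266 (adjusted p = 1.55e-07). RPS23 was lower in MM.1S than in U266 by 0.77 and than in 8226R5 by 1.73, with values of 9.99 and 10.11 in MM.1S, 10.87 and 10.77 in U266, and 11.70 and 11.86 in 8226R5. RPL5 was 1.19 lower in MM.1S than in 8226R5 (adjusted p = 3.39e-06). RPL21 was 1.91 lower in U266 than in 8226R5 (adjusted p = 8.21e-08), and the 2 arrays of each line lay apart from those of the others. RPL39L was 0.59 higher in U266 than in 8226R5 (adjusted p = 0.000217) while its U266 and MM.1S arrays overlapped.

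**Figure D5:**
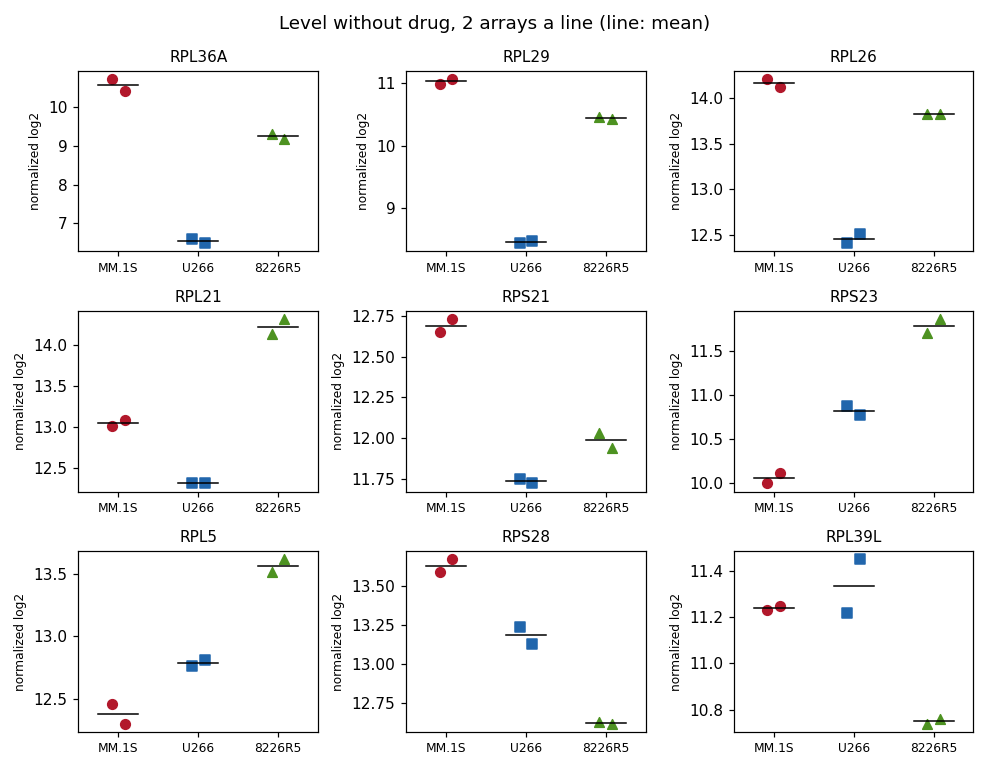
Normalized log2 level of 9 members without the drug in the 3 lines, 2 arrays a line with the line at their mean, on axes that do not start at 0. RPL36A, RPL29, RPL26 and RPL21 are lowest in U266, and RPS23 and RPL5 are lowest in MM.1S and highest in 8226R5.

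Genes that act with the ribosome were counted from lists of known function, to be read against the 50.1% of all genes lower and 24.0% higher in MM.1S and the 16.4% and 13.3% in U266. Of 28 translation factors and other TOP mRNAs 24 (85.7%) were lower and 4 (14.3%) higher in MM.1S, with a median of -0.75, and in U266 6 were lower and 2 higher. EIF4B, an initiation factor, went from 9810 and 9019 to 999 and 1025 in MM.1S and changed by -1.58 (SE 0.08, adjusted p = 3.01e-07 by limma). EIF2S3, a subunit of the factor that brings the initiator tRNA, went from 3421 and 3363 to 304 and 326 and changed by -1.57 (SE 0.07, adjusted p = 1.88e-07). Of 67 genes of RNA polymerase I and ribosome assembly 41 (61.2%) were lower and 14 (20.9%) higher in MM.1S, and 16 (23.9%) and 2 (2.99%) in U266. Of 24 mTOR genes 13 (54.2%) were lower and 7 (29.2%) higher in MM.1S, near those shares. DDIT4, an inhibitor of mTOR, was higher in MM.1S, from 165 and 153 to 682 and 699 and by 3.70 (SE 0.07, adjusted p = 1.22e-09), and in U266, from 967 and 924 to 1480 and 1428 and by 1.32 (adjusted p = 3.33e-06), with -0.04 (adjusted p = 0.759) in 8226R5. Of 20 genes of ribosome quality control and recycling 12 were lower and 8 higher in MM.1S. ABCE1, which splits the subunits after termination, went from 1921 and 2002 to 191 and 199 and changed by -1.40 (SE 0.08, adjusted p = 4.59e-07), and NEMF, which binds stalled large subunits, went from 274 and 300 to 198 and 241 and changed by 1.46 (SE 0.11, adjusted p = 2.62e-06). Among 15 genes of the 5S RNP and p53 checkpoint 8 (53.3%) were lower and 4 (26.7%) higher in MM.1S, near the shares of all genes. The same list had 4 lower and 1 higher in U266. ZMAT3, a p53 target, rose by 2.37 in MM.1S (adjusted p = 3.15e-08) and by 0.81 in U266 (adjusted p = 0.000208). GADD45A, BBC3 and NOP53 were also called higher in MM.1S after normalization, though their deposited signals were lower with the drug. GADD45A went from 761 and 738 to 460 and 447 in MM.1S, BBC3 from 116 and 108 to 76 and 96. NOP53 went from 8011 and 8012 to 7037 and 6699 in MM.1S. CDKN1A changed there by -0.6 (adjusted p = 0.000761) and SESN1 by -1.01 (adjusted p = 1.43e-06), and MDM2 was not called. GADD45A was lower in U266, with a change of -0.86 (adjusted p = 6.92e-05). The rise of ZMAT3 was thus not shared by the list as a whole. Of 76 mitochondrial ribosomal protein genes 42 (55.3%) were lower and 17 (22.4%) higher in MM.1S, with a median of -0.31 against -0.35 for all genes. Of 18 Diamond-Blackfan anaemia ribosomal protein genes, themselves members, 10 (55.6%) were lower and 2 (11.1%) higher in MM.1S, the falls again near the share of all genes.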

How the data were processed

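Signals, detection p-values and a second table were deposited for all 12 arrays and matched to samples by title. The deposited signal is an intensity, background-subtracted and not normalized between arrays, per the file headers. The detection p-value compares a probe with negative control beads, per the file headers. The second table holds log2 values that the authors quantile normalized, per the submitters' processing notes and the values. BeadStudio, lumi and limma are named, per the submitters' processing notes. For the probes, a genome build is not given in the sources used.

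On 9 arrays the deposited signals were displaced by 1 row from probe 22924 on (24399 probes). They were realigned, which moved the Spearman correlation with the authors' log2 values from 0.511 to 0.529 to 1. Gene symbols came from the platform annotation, 30111 of 47321 probes having 1.

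Signals were corrected with limma 3.58.1 (R 4.3.3, Python 3.11.15) by neqc with an offset of 16, quantile normalized and taken to log2. A probe was kept where its detection p was under 0.01 on 2 or more arrays (19357 probes, 4529 of them without a symbol), and the brightest probe stood for each gene. 1 mean per group was fitted over 12 arrays with 6 residual degrees of freedom, eBayes and Benjamini-Hochberg adjustment per contrast over 11305 genes. In data simulated for MM.1S, 34.3%, 82.1% and 97% of genes moved by 0.5, 1 and 2 log2 were recovered, with 4 false calls. There 67, 67 and 66 genes were moved, all upward, and the others not. In the real MM.1S comparison 50.1% of genes were lower and 24.0% higher, so these figures need not hold for it. A gene undetected on every array of 1 group is given as "at least" N-fold against the lowest well-detected signal, in the quantile normalized values. Only 2 arrays a group limit the precision.

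The members and the lists were chosen with earlier results of these data known. Named are, in each line, the 6 largest rises and falls past the threshold whose groups do not overlap, the 4 largest either way in each other comparison, and a fixed set of members with known roles. Same-numbered arrays of a line deviated together with correlations of 0.011, -0.011 and -0.006, so the numbers do not pair the arrays. RNA was amplified from the same input for every array, per the labels' protocols, so signals do not measure RNA per cell.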

Additional observations from a re-analysis of the deposited data

Results flagged for a closer look

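Differences in the response to PRIMA-1Met between lines were tested as contrasts in limma, and the following passed an adjusted p under 0.05. MM.1S received a lower dose than U266 and 8226R5, which received the same one. Between MM.1S and U266 40 members differed, with log2 differences of 3.39 for RPL10L, 1.60 for RPL7L1, 0.75 for RPL13 and 0.27 for RPL35 on the higher side, and -2.41 for RPL28, -1.30 for RPS23, -1.11 for RPS4X and -1.05 for RPL22 on the lower. Between MM.1S and 8226R5 36 members differed, with 4.82 for RPL10L, 1.74 for RPL7L1, 1.18 for RPL14 and 1.01 for RPL13, and -1.98 for RPL28, -1.65 for RPL22, -1.16 for RPL4 and -1.14 for RPS23. Between U266 and 8226R5 13 members differed, with 1.43 for RPL10L, 1.32 for RPL14, 0.85 for RPL7 and 0.80 for RPL29, and -0.60 for RPL22 and -0.40 for RPS6. RPL10L was undetected in MM.1S and U266 controls and RPL28 in treated MM.1S, so the fitted differences of RPL10L, and those of RPL28 that involve MM.1S, depend on the background floor and are no measured sizes. The second RPL7L1 probe changed by -0.49, -0.25 and 0.32 in MM.1S, U266 and 8226R5, so the sign of its differences depends on the probe. The second RPL14 probe changed by 0.26 in U266 and -0.09 in 8226R5, neither past the threshold.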

How the results depend on the processing

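The counts of members called and their median relative to all genes depended mainly on the scaling of the arrays. With median scaling over all probes, on the probes detected on all 12 arrays, and with no scaling, members higher in MM.1S numbered 4, 62 and 2, and lower 59, 6 and 63. In the same order, U266 had 4, 64 and 3 higher and 24, 1 and 41 lower, and 8226R5 had 23, 2 and 30 higher and 0, 7 and 0 lower. The members' median relative to all genes was 0.66 in MM.1S, 0.37 in U266 and 0.00 in 8226R5 under all 3. Differences in response called were 62, 65 and 66 between MM.1S and 8226R5, and 39, 54 and 55 between U266 and 8226R5. In MM.1S the relative median was 0.25 without background correction, 0.04 with an offset of 50 and -0.20, reversed, without the detection filter, since many undetected genes then enter the comparison. In 8226R5 members higher were 2 with the offset of 50, and members lower were 2 with the authors' values, 0 without background correction, 4 with the offset of 50, 0 without the detection filter and 6 with detection on all 12 arrays. In U266 lower members were 1 without the detection filter. The replicate numbers do not pair the arrays, and with them as a replicate block 7 and 39 members were higher and lower in MM.1S, 11 and 3 in U266, and 1 and 0 in 8226R5. Alternatives added after seeing the data were fits without a line's arrays (U266 lower 1 without 8226R5, 8226R5 higher 2 without MM.1S) and each probe tested alone (17 higher and 60 lower in MM.1S, 20 higher in U266, 5 higher and 0 lower in 8226R5). Leaving out 1 array gave 7 to 8 higher and 34 to 37 lower in MM.1S, 7 to 8 higher and 0 to 2 lower in U266, 1 to 2 higher and 0 lower in 8226R5, relative medians of 0.08 to 0.12, 0.05 to 0.08 and -0.04 to -0.02, and 32 to 37, 32 to 37 and 8 to 14 called between MM.1S and U266, MM.1S and 8226R5, and U266 and 8226R5. Single members that changed sign, with their log2 change, were in MM.1S RPL14 (-0.55, -0.71), RPL13 (-0.81, -0.97) and RPL26L1 (-1.40, -1.56) with median and no scaling, RPL28 (0.15), RPS27L (0.39), RPL5 (0.11), RPL11 (1.38), RPS6 (0.46), RPLP1 (1.57) and RPL36AL (0.50) on the probes detected on all arrays, and RPLP1 (0.22) and RPL26L1 (-0.24) as the mean of all probes. In U266 they were RPL5 (-0.28, -0.43), RPL39L (-0.34, -0.49) and RPL26L1 (-0.20, -0.35) with median and no scaling, RPL29 (-0.14), RPL7 (-0.05), RPS4X (-0.31) and RPL7L1 (-0.12) with no scaling, RPL36AL (0.12), RPS27L (0.00), RPL11 (0.50), RPS6 (0.30) and RPLP1 (0.57) on the probes detected on all arrays, and RPLP1 (0.31) as the mean of all probes. The cause of each was not tested. Dim members such as RPL28, RPL37 and RPL10L are limited by their signal over background.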
